A study of Mus musculus with 4 samples.

Results

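Cytosolic ribosomal proteins, the protein components of the ribosomes that translate nuclear-encoded messages, were followed in cultured mouse SVEC cells exposed to lipopolysaccharide (LPS). Members were taken by symbol: a gene counted if the probe annotation gave its spots a single symbol beginning with Rpl or Rps and ending in a number, with or without a closing a, l or x, or one of Rplp0, Rplp1, Rplp2 and Rpsa. That gave 66 of the 11138 named genes, 42 of the large and 24 of the small ribosomal subunit. Each was measured by 1 oligonucleotide printed as 2 spots. Ribosomal symbols of another form, such as Rps3a1 and Rpl7l1, are given apart from the 66.

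SVEC is an established mouse endothelial line, and LPS, from the outer membrane of Gram-negative bacteria, is sensed by cells through the receptor Tlr4. Amplified RNA of cells given LPS was hybridised with RNA of control cells on the same array, after 24 h or after 4 h, with 2 arrays a time. LPS was in Cy5 on the first array and in Cy3 on the second, the dye reversal, and 3 arrays are labelled with a dose of 50 ng/ml (the 4 h dye reversal states none). The labels name no genotype, passage, clone or number of cultures and do not say what the control cells received. Both arrays of a time were therefore taken as 1 RNA pair, so that the SD printed beside a mean is the spread between 2 arrays and holds nothing of the spread between cultures.

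All values are log2 ratios of LPS over control, centred on the median of each array, with the sign of the dye-reversal arrays turned. That direction rests on the dyes named in the labels and is likely, not settled; with the opposite convention every sign here would turn. A change in RNA per cell and a change in the cells that contribute RNA cannot be told apart in such a bulk ratio. The files used hold no intensities, so the endothelial label could be followed only as ratios: 1 of 13 measured endothelial markers passed the rule below, Cdh5, the cadherin of endothelial junctions, at -0.06 ± 0.16 at 24 h and -3.47 ± 2.12 at 4 h (SD, n = 2 arrays each). That count depends on the centring. Centred on abundant transcripts, as described below, the endothelial median at 4 h was -1.82 and that of all named genes -1.81. Cdh5 was then at -5.28 at 4 h, and Esam (-1.87) and Icam2 (-2.26) were called lower as well.

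Each ribosome joins a small subunit, which decodes the message, to a large subunit, which forms the peptide bonds. Ribosomal protein messages are among the most abundant of a growing cell, and most begin with a run of pyrimidines, the TOP motif, through which the mTOR kinase pathway and the protein Larp1 set their translation together. Transcription of these genes from compact, GC-rich promoters is known to involve ETS-family factors such as GABP, and YY1. Several members also act away from the ribosome: Rpl5 and Rpl11 bind Mdm2 when ribosome assembly is disturbed, and human RPL13A is released from the ribosome in monocytes given interferon gamma and then represses translation of inflammatory messages.

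Stretches around the start site of 7 members are shown, from 60 bases before to 30 bases from the start, because these genes mark the ends of the range described below. Coordinates and sequences are RefSeq's on GRCm38.p6. Rpl6 (chr5:121204441-121204530, plus strand), Rps3 (chr7:99483680-99483769, minus strand), Rps7 (chr12:28635924-28636013, minus strand) and Rpl13a (chr7:45128716-45128805, minus strand) were among the 6 highest at 4 h. Rpl12 (chr2:32961652-32961741, plus strand) was 1 of the 2 members higher at both times, and Rpl37 (chr15:5116553-5116642, plus strand) and Rpl3l (chr17:24727766-24727855, plus strand, the first of 2 start sites) were the lowest at 4 h. Capitals mark CTTTCC or CCGGAAG on either strand.
Rpl6: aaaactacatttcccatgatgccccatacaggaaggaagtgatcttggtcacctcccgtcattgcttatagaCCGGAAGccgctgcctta
Rps3: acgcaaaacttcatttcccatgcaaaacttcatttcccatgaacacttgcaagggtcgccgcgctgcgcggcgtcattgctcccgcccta
Rps7: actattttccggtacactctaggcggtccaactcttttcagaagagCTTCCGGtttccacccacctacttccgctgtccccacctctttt
Rpl13a: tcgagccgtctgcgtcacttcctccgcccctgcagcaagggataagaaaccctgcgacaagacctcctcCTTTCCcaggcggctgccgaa
Rpl12: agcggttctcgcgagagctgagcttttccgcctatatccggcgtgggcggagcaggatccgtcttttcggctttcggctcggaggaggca
Rpl37: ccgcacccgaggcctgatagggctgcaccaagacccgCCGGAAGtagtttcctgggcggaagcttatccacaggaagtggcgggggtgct
Rpl3l: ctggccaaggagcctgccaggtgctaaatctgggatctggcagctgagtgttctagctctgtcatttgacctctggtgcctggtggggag

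Within 300-base windows, 250 before to 50 from the start, 54 members had 66 windows on 17 chromosomes. Counted on both strands, CCGGAAG, the core bound by ETS factors, was found in 23 of 54 members (42.6%), against 9.93% of 27025 genes with a window. A short pyrimidine run, searched as CTTTCC, was found in 27 members (50.0%), against 29.3% of all genes. The search took either strand anywhere in the window, so it does not count messages that begin with the TOP motif. The core bound by the factor YY1, searched as AAGATGGC, was found in 4 members (7.41%), against 3.19% of all genes, and its first letters can overlap the end of the ETS core. The TATA box, which many compact promoters lack and which was searched as TATAAA, was found in 5 members (9.26%), against 15.7% of all genes. Per window of the same length the shares were 36.4% against 8.86% for the ETS core, 47.0% against 26.6% for the pyrimidine run, 9.09% against 2.75% for the YY1 core and 7.58% against 13.6% for the TATA box. The median 4 h log2 ratio was 1.44 in members with the ETS core and 2.42 in those without it, and 2.02 with the pyrimidine run and 2.44 without it; 12 and 17 members with the letters were higher at 4 h by the rule given below, against 21 and 16 without them. Of the printed stretches, Rpl37, the lowest member, and Rpl6, the highest, both hold the ETS core. Such matches are letters in a window, not sites of binding.

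Relative to the median spot, few ribosomal protein messages were higher in LPS cells at 24 h and most were at 4 h. When the arrays were centred on abundant transcripts instead, 21 were higher and 17 lower at 4 h. Of all 11138 named genes, 123 were then higher and 8863 lower. The call required a mean of 2 arrays of 1 log2 unit or more (2-fold), with neither array under 1.5-fold in that direction. It is a rule of size and not a test, since each time was taken as 1 RNA pair, which allows none. At 24 h, 2 of 66 members were higher (3.03%; 1.68% of all named genes were) and 0 were lower (0.799% of all). At 4 h, 39 of 66 were higher (59.1%; 8.74% of all) and 0 were lower (5.77% of all). The same rule applied to dye over dye, with the reversed array not turned, picked 1 of 66 members at 24 h (1.7% of all) and 1 of 66 at 4 h (1.83% of all).

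The median member had a log2 ratio of 0.26 at 24 h (quartiles -0.03 and 0.59) and 2.03 at 4 h (quartiles 0.51 and 3.21), while the median of all named genes was 0.02 at 24 h and 0.00 at 4 h. Array by array, the members' median was 0.32 with LPS in Cy5 and 0.23 with LPS in Cy3 at 24 h, and 2.42 and 2.03 in the same dye order at 4 h. Both arrays lay above 0 for 38 members at 24 h (57.6%; 30.3% of all genes) and for 45 at 4 h (68.2%; 31.2% of all). Both lay below 0 for 7 members at 24 h (25.6% of all) and 8 at 4 h (31.6% of all). At 4 h, 34 members reached a 4-fold mean (51.5%, against 3.64% of all genes), 19 of the 133 genes at 8-fold or more were members, and so were 9 of the 50 highest genes.

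**Figure D1:**
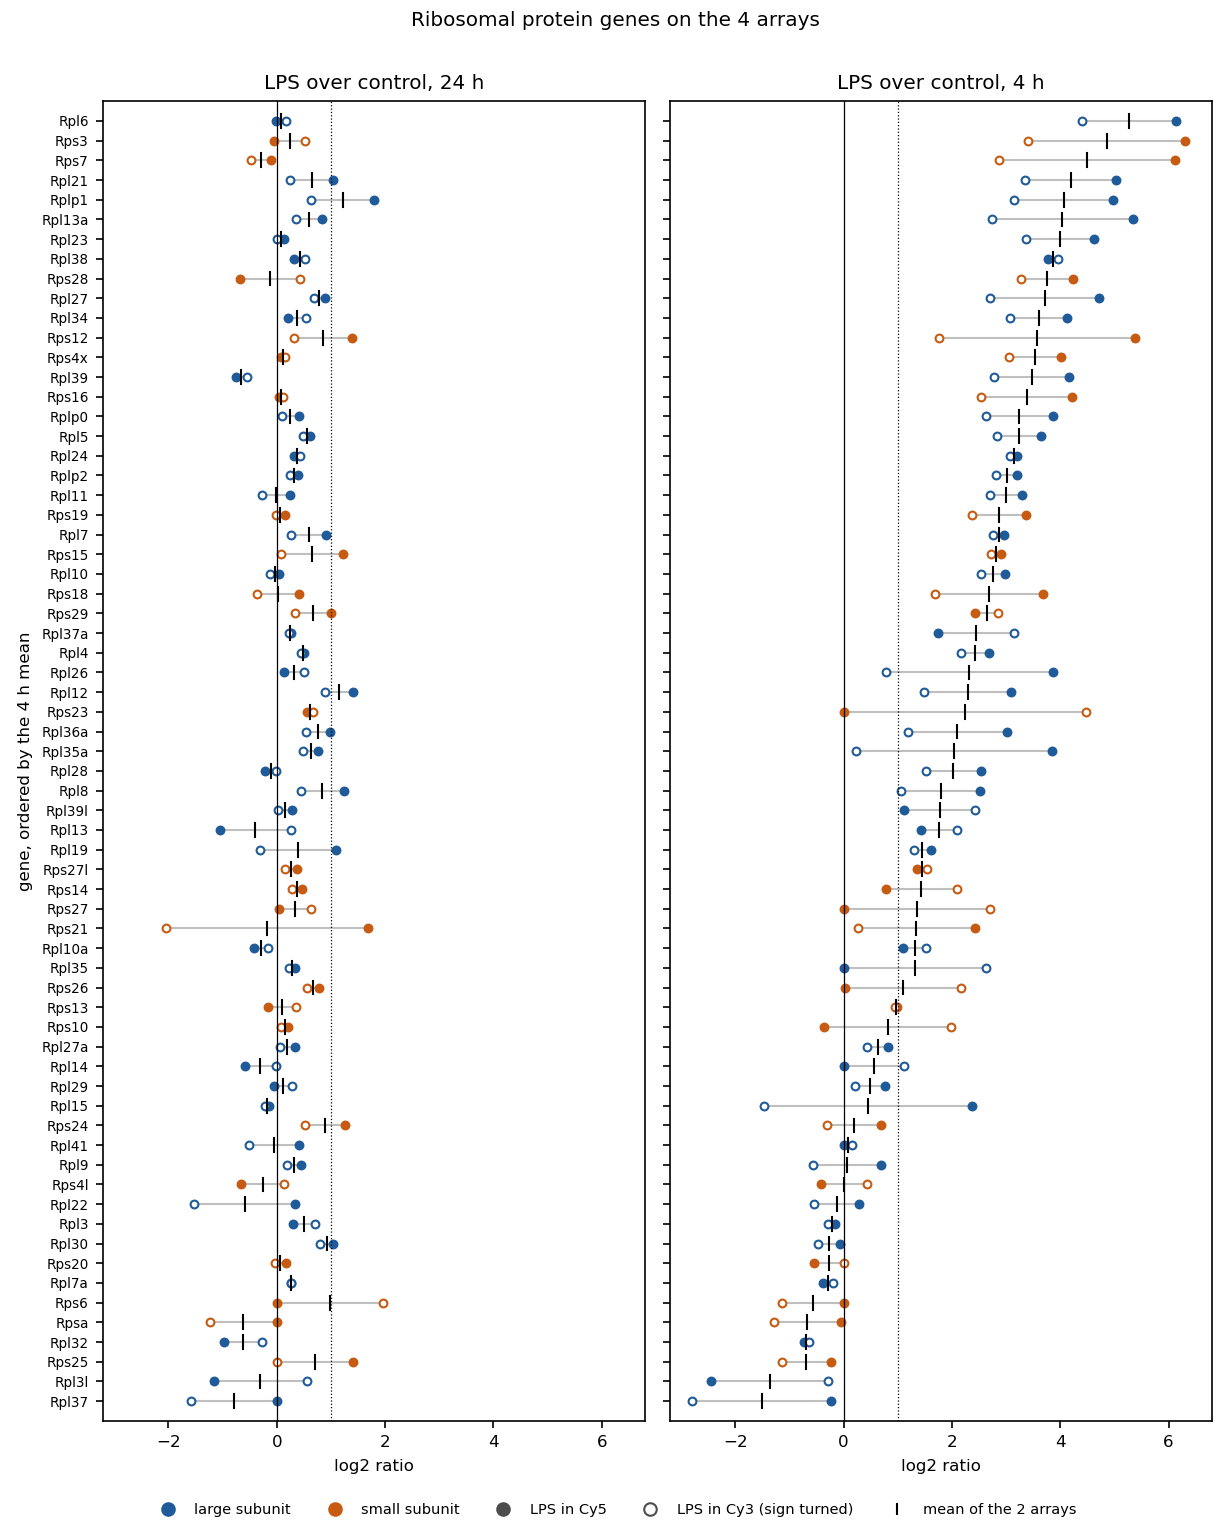
Log2 ratio of LPS over control (horizontal axes) for each of the 66 members, ordered by the 4 h mean, at 24 h (left) and 4 h (right). Filled circles are the arrays with LPS in Cy5, open circles those with LPS in Cy3, ticks their mean, and the dotted line is 2-fold; at 24 h the means lie between -0.79 and 1.22, at 4 h between -1.51 and 5.27.

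The 4 h count thus depends on the centring. For 34 abundant transcripts that have no part in translation, listed with earlier results of these data known, the median log2 ratio was 0.13 at 24 h and 1.78 at 4 h, with 1 member of that list higher at 24 h and 19 at 4 h. Its highest at 4 h were H3f3b, a replacement histone, at 5.79 ± 1.94, the cyclophilin Ppia at 5.76 ± 1.32 and Atp5b, a subunit of the mitochondrial ATP synthase, at 5.06 ± 2.63 (SD, n = 2 arrays each). Centring on that list takes 2.31 from every gene's 4 h value with LPS in Cy5 and 1.31 from that with LPS in Cy3, so the median of all named genes moved to -1.81 at 4 h, and 123 of them (1.1%) were higher and 8863 lower. The ribosomal members then had a median of 0.22 at 4 h. The part of transcript abundance in the 4 h counts was not tested, since no levels are in the files used.

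Among large-subunit genes, Rpl6 had the highest 4 h mean of all 66 members. At 4 h its log2 ratio was 6.14 when LPS carried Cy5 and 4.39 when it carried Cy3, a mean of 5.27 ± 1.24 (SD, n = 2 arrays) or 38.5-fold. The next was Rpl21, at 5.03 and 3.35 in the same dye order (mean 4.19 ± 1.19). Rpl13a had 5.33 and 2.74 (4.04 ± 1.83), and its printed promoter stretch holds CTTTCC just after the start. Rpl23, which lies on the face turned to the small subunit, had 4.61 and 3.36 (3.99 ± 0.88). In each of these the array with LPS in Cy5 gave the larger value, as it did in 46 of 66 members at 4 h.

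The stalk of the large subunit, which recruits the translational GTPases, was higher at 4 h relative to the median spot, but of its 4 genes described here Rpl12 did not pass when the arrays were centred on the abundant transcripts. Rplp1, a stalk tip protein, had 4.97 and 3.15 at 4 h (mean 4.06 ± 1.29, 16.7-fold), with LPS in Cy5 first. Rplp0, the stalk base, had 3.86 and 2.63 (3.24 ± 0.87), and Rplp2, the partner of Rplp1, had 3.21 and 2.81 (3.01 ± 0.28). Rpl12, which sits beside Rplp0, had 3.10 and 1.49 (2.29 ± 1.14), and its spots with LPS in Cy3 read 2.98 and 0.00. All 4 passed the rule at 4 h, as did 59.1% of members and 8.74% of all genes; with the other centring Rpl12 had 0.48 and did not. The Mdm2-binding pair did so as well: Rpl5 had 3.64 and 2.84 (3.24 ± 0.56) and Rpl11 had 3.29 and 2.70 (7.99-fold). Among the 19 members at 8-fold or more, the arrays lay closest together in Rpl24, at 3.21 and 3.07, and Rpl38, at 3.77 and 3.96.

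Among small-subunit genes, Rps3, which lines the entry of the message, had 6.30 with LPS in Cy5 and 3.40 with LPS in Cy3 at 4 h, a mean of 4.85 ± 2.05 (SD, n = 2 arrays) or 28.9-fold. Rps7 had 6.12 and 2.87 (4.50 ± 2.29, 22.6-fold). Rps28 had 4.23 and 3.28 (3.75 ± 0.67). Of these 3, Rps7 had the widest distance between its arrays, and both of them lay above 4-fold. Rps12 had 5.37 and 1.76 (3.57 ± 2.55), and Rps4x, encoded on the X chromosome, had 4.01 and 3.05 (3.53 ± 0.68). The arrays of Rps12 were farther apart than those of any other small-subunit gene that passed the rule, and it lost the call when the arrays were centred on the abundant transcripts, at a mean of 1.76 with 0.45 on the array with LPS in Cy3.

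Not every member was high. Of the 27 that did not pass at 4 h, 6 had a mean of at least 1 but an array under 1.5-fold (Rps23, Rpl35a, Rps27, Rps21, Rpl35 and Rps26), 10 had a mean between 0 and 1, and 11 had a mean below 0. Rps23 was at 0.00 with LPS in Cy5 and 4.48 with LPS in Cy3. Both of its Cy5 spots carried a ratio of exactly 1, which the files do not explain, and so did both spots on a 4 h array of 6 members in all (Rpl14, Rpl35, Rpl41, Rps23, Rps27 and Rps6). An array at 0 cannot pass the 1.5-fold requirement, so these 6 could not be called.

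The lowest large-subunit genes at 4 h were Rpl37, at -0.23 with LPS in Cy5 and -2.79 with LPS in Cy3 (mean -1.51 ± 1.81, SD, n = 2 arrays), Rpl3l and Rpl32. Rpl3l, the striated-muscle paralogue of Rpl3, had -2.44 and -0.29 (-1.36 ± 1.52). Rpl32 had -0.73 and -0.65 (-0.69 ± 0.06), and was the one of these 3 with both arrays beyond 1.5-fold. The lowest small-subunit genes were Rps25, Rpsa and Rps6. Rps25, needed in human and yeast cells for initiation at some internal entry sites, had -0.24 and -1.15 (-0.69 ± 0.64). Rpsa, also known as the laminin receptor precursor, had -0.06 and -1.29 (-0.67 ± 0.87), and Rps6, the substrate of the S6 kinases, had 0.00 and -1.14 (-0.57 ± 0.81).

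Several of the low values rested on a single spot. On the 4 h array with LPS in Cy3 the 2 spots of Rpl37 read -5.58 and 0.00, those of Rps6 read 0.04 and -2.32, and those of Rps25 read 0.03 and -2.32. The spots of Rpl3l read -4.89 and 0.00 with LPS in Cy5. By contrast the spots of Rpl32 lay at -0.72 and -0.73 with LPS in Cy5 and -0.68 and -0.61 with LPS in Cy3. High calls could rest on 1 spot too: Rpl36a read 0.00 and 6.03, Rps29 0.16 and 4.70 and Rpl19 3.46 and -0.24 with LPS in Cy5 at 4 h, whereas Rpl6 read 5.95 and 6.33 and Rps3 6.30 and 6.30.

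Over the list, the spots of 42 members lay within 1 log2 unit of each other on both 4 h arrays, and 27 of these were higher with a median of 2.50. Of the other 24, 12 were higher with a median of 1.44. The median distance between a member's spots was 0.32 with LPS in Cy5 and 0.52 with LPS in Cy3 at 4 h, against 0.19 and 0.27 over all oligonucleotides with 2 spots. Across members the 2 arrays of a time correlated at r = 0.077 at 24 h (Spearman rho 0.27) and r = 0.64 at 4 h (rho 0.68), a description over 66 genes that share those arrays. Over all genes r was 0.10 at 24 h and 0.48 at 4 h.

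**Figure D2:**
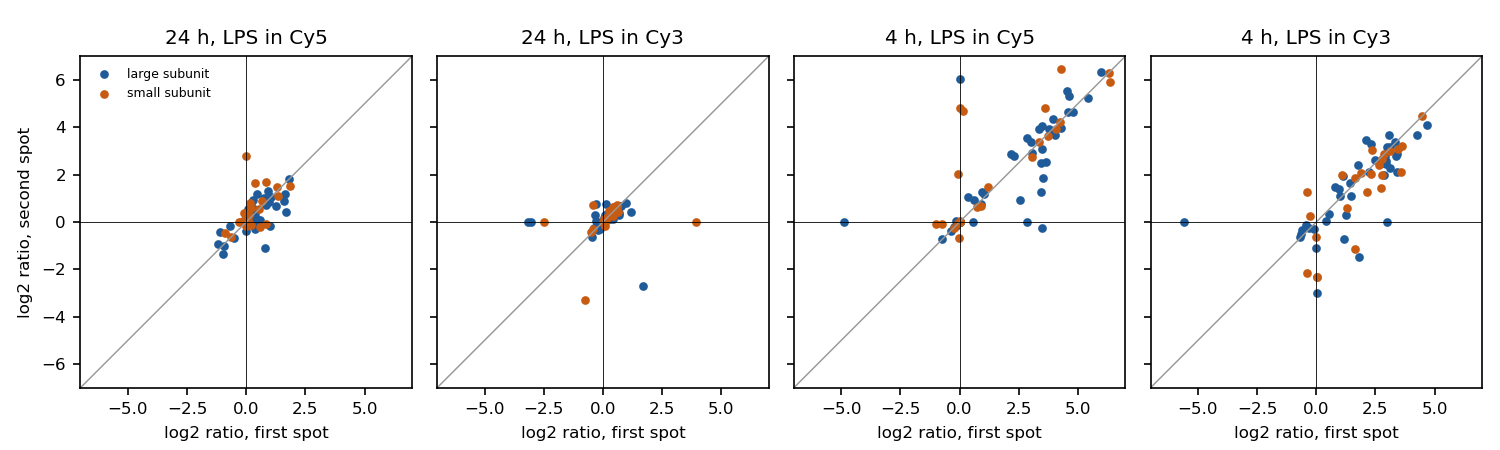
Log2 ratio of LPS over control at the first (horizontal) and second (vertical) spot of each member on each array, 24 h on the left and 4 h on the right, coloured by subunit, with the line of equality. Most 4 h points lie along the line at high values, while points on an axis are members with 1 spot near 0, such as Rpl36a at 0.00 and 6.03.

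Copies with near-identical sequence limit what a single oligonucleotide can tell, because ribosomal protein genes have many processed pseudogenes and some have expressed paralogues. Rpl39, which lines the exit tunnel of the large subunit, had -0.65 ± 0.15 at 24 h and 3.47 ± 0.97 at 4 h, and its testis-enriched paralogue Rpl39l had 0.16 ± 0.19 at 24 h and 1.77 ± 0.93 at 4 h (SD, n = 2 arrays each). Rps27l, a paralogue of Rps27, had 1.35 with LPS in Cy5 and 1.54 with LPS in Cy3 at 4 h, where Rps27 had 0.00 and 2.71. Centred on the abundant transcripts, Rpl39l and Rps27l turned below 0 at 4 h, to -0.038 and -0.37. Rpl3, which reaches the catalytic centre, had 0.51 ± 0.29 at 24 h and -0.22 ± 0.09 at 4 h, and Rps4l, a paralogue of Rps4x, had -0.26 ± 0.56 at 24 h and 0.01 ± 0.61 at 4 h. Probe sequences were not used here, so how far such pairs share signal was not tested.

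Relative to the median spot both subunits were higher at 4 h, but centred on the abundant transcripts the 4 h median was 0.26 for the large and -0.37 for the small subunit. Their order differed between the 4 h arrays. At 24 h, 2 of 42 large-subunit genes (4.76%) and 0 of 24 small-subunit genes were higher, with medians of 0.27 and 0.19. At 4 h, 27 of 42 large-subunit genes (64.3%) and 12 of 24 small-subunit genes (50%) were higher, with medians of 2.07 for the large and 1.44 for the small subunit. The large-minus-small difference of 0.63 at 4 h was 1.44 when LPS carried Cy5 and -0.23 when it carried Cy3, so the arrays gave opposite signs (SD 1.18, n = 2 arrays). With spots at a ratio of exactly 1 taken as not measured it was -0.10, and without oligonucleotides whose spots differed it was 0.0765. At 24 h the difference was 0.077, with 0.13 and 0.097 on its arrays.

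**Figure D3:**
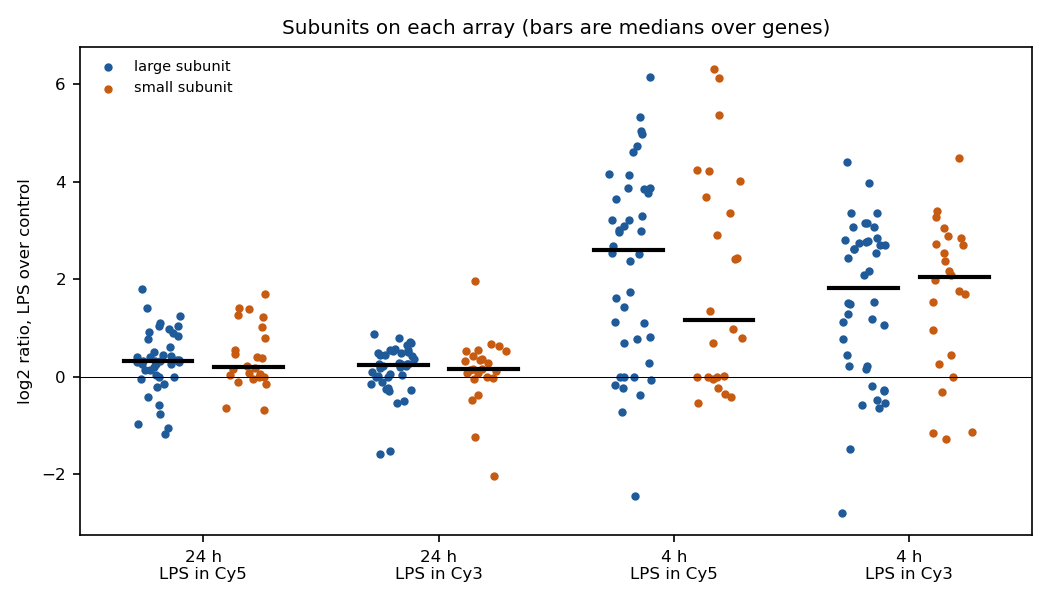
Log2 ratio of LPS over control (vertical axis) of large-subunit (blue) and small-subunit (orange) genes on each of the 4 arrays, with black bars at the medians over genes. The large-subunit median minus the small-subunit one is 1.44 at 4 h when LPS carried Cy5 and -0.23 when it carried Cy3.

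The 2 members higher at 24 h belong to the stalk and its base in the large subunit, and both were also higher at 4 h; centred on the abundant transcripts, Rpl12 alone was higher at 24 h and 0 members were higher at both times. Rplp1 had 1.81 with LPS in Cy5 and 0.64 with LPS in Cy3 at 24 h (mean 1.22 ± 0.82, 2.33-fold). Rpl12 had 1.40 and 0.88 at 24 h (1.14 ± 0.36, 2.21-fold). Of all genes, 0.413% were higher at both times. Without the LPS in Cy3 array 12 members would count as higher at 24 h, against 4.51% of all genes. Without the LPS in Cy5 array 1 would, against 6.92% of all genes. That member was Rps6, at 1.97 with LPS in Cy3, and neither Rplp1 nor Rpl12.

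Next in rank at 24 h was Rps6, at 0.00 with LPS in Cy5 and 1.97 with LPS in Cy3 (0.98 ± 1.39), where 1 of its Cy3 spots read 3.93 and the other 0.00. At the low end stood Rpl37, at 0.00 and -1.58 (-0.79 ± 1.12), Rpl39, at -0.76 and -0.55 (-0.65 ± 0.15), and Rpl32, at -0.98 and -0.26 (-0.62 ± 0.51). Of these 3, Rpl39 and Rpl32 lay below 0 on both arrays. Both Cy5 spots of Rpl37 carried a ratio of exactly 1, and its Cy3 spots read -3.17 and 0.01. The stalk base Rplp0 had 0.41 and 0.10, Rplp2 had 0.40 and 0.25, Rpl5 had 0.62 and 0.49 and Rpl11 had 0.25 and -0.28 at 24 h. On every 24 h array these 4 genes lay under 1, and on every 4 h array they lay at 2.63 or more.

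Set against 4 h, most members were lower at 24 h relative to the median spot. When the arrays were centred on the abundant transcripts, 19 were lower and 17 higher. That centring put the median of all named genes at -0.07 at 24 h and -1.81 at 4 h. The share of all genes by the rule below is not given for it. A gene counted as different when its means differed by at least 1 log2 unit and both arrays of a time lay beyond both of the other. By that rule 38 of 66 members were lower at 24 h (57.6%; 9.99% of all genes) and 2 were higher (8.22% of all). The 24 h mean lay under the 4 h mean in 54 members (81.8%, against 50.1% of all genes). Rpl6 had 0.08 ± 0.13 at 24 h and 5.27 ± 1.24 at 4 h, Rps3 had 0.24 ± 0.40 at 24 h and 4.85 ± 2.05 at 4 h, and Rps7 had -0.29 ± 0.27 at 24 h and 4.50 ± 2.29 at 4 h (SD, n = 2 arrays each). In these 3 genes the arrays of the times did not overlap.

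The 2 members higher at 24 h than at 4 h were Rpl30 and Rps25. Rpl30, which in yeast binds its own transcript, had 1.04 with LPS in Cy5 and 0.80 with LPS in Cy3 at 24 h, and -0.06 and -0.47 in that dye order at 4 h. Rps25 had 1.40 and 0.00 at 24 h, and -0.24 and -1.15 at 4 h, but 1 of its Cy5 spots at 24 h read 2.81 and the other 0.00. Whether both times were set against the same control RNA is not given in the labels.

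**Figure D4:**
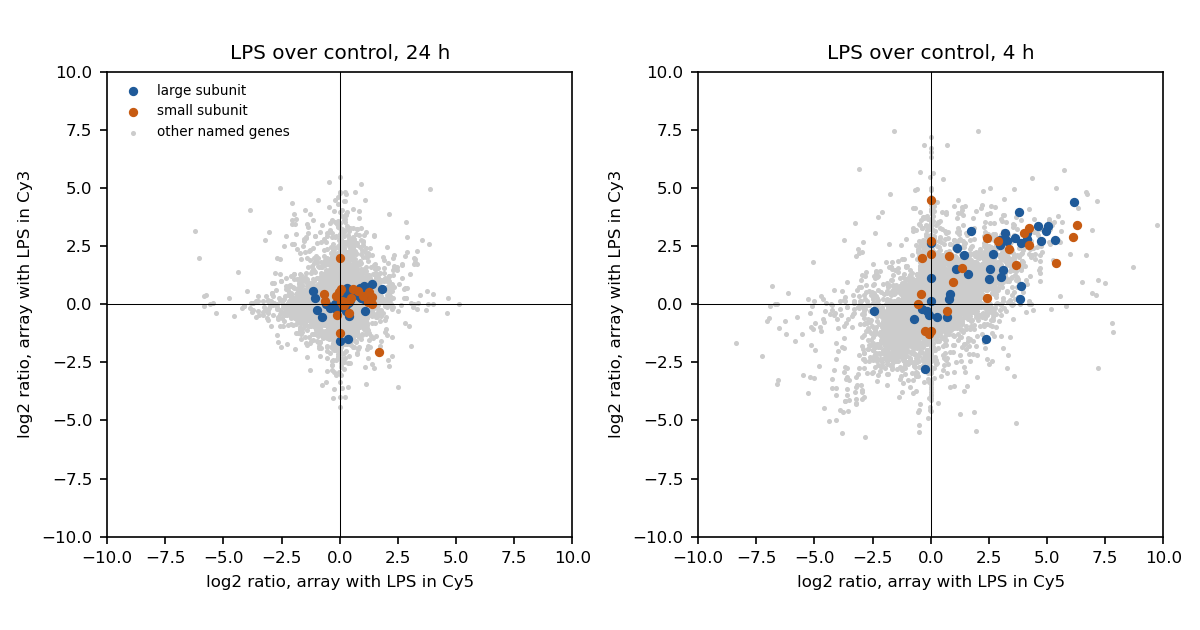
Log2 ratio of LPS over control with LPS in Cy5 (horizontal axis) and with LPS in Cy3 (vertical axis), at 24 h (left) and 4 h (right), for members by subunit and for the other named genes (grey). Centred on the median spot, most members lie in the upper right quadrant at 4 h, with 45 above 0 on both arrays, while at 24 h they crowd near 0.

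The only test that the design allows takes the times as a pair of samples of the same contrast. The times are not replicates of a condition, and the residual of that test is the difference between them. In limma's moderated test on the pair means, with 1 residual degree of freedom and Benjamini-Hochberg adjustment over all 11138 genes, 0 of 66 members and 0% of all genes reached an adjusted p of 0.05. The smallest adjusted p was 0.761. At an unadjusted p of 0.05, 8 members passed (12.1%; 4.61% of all genes), 7 of them higher. Rpl12 had the smallest unadjusted limma p among members, 0.0157, with a shared log2 ratio of 1.72 (SE 0.40) and all 4 arrays above 0. With LPS in Cy3 at 4 h its spots read 2.98 and 0.00, so that array rested on 1 spot.

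Genes that work with the ribosome were set beside its proteins, from lists drawn up with earlier results known. Of 15 measured translation and TOP-message factors outside the ribosome, 0 were higher at 24 h and 11 at 4 h, with 0 lower at either time and medians of 0.42 at 24 h and 1.71 at 4 h (0.32 and -0.10 when centred on the abundant transcripts). Their highest were Pabpc1, the poly(A)-binding protein, at 0.46 ± 0.34 at 24 h and 5.73 ± 1.43 at 4 h, Tpt1, a growth-linked TOP message, at 0.88 ± 0.54 and 4.34 ± 1.07 in the same order of times, and the elongation factor Eef1a1, at 0.32 ± 0.44 and 4.33 ± 1.24 (SD, n = 2 arrays each). Of 33 initiation factor genes, 1 was higher at 24 h and 11 at 4 h, with medians of 0.19 at 24 h and 0.25 at 4 h (0.091 and -1.56 when centred on the abundant transcripts). At 4 h Eif4g2 had 4.64 ± 1.18 and Eif3c 4.39 ± 3.24. Of 10 elongation factor genes, 3 were higher and 1 lower at 4 h.

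Ribosomal proteins of the mitochondrion, which translate the messages of that organelle, lay near the median spot over 63 genes, with medians of 0.12 at 24 h and 0.15 at 4 h (0.028 and -1.66 when centred on the abundant transcripts). Of these 63, 0 were higher at 24 h and 6 at 4 h (9.52%, against 8.74% of all genes), among them Mrpl54 at 2.84 ± 1.07 and Mrpl45 at 2.71 ± 0.30, of which Mrpl45 lost the call with that other centring, at 0.90. Of 31 ribosome biogenesis genes, 1 was higher and 1 lower at 24 h, and 4 were higher and 1 lower at 4 h; Nmd3, the export adaptor of the large subunit, had 2.45 ± 1.69 at 4 h, and 0.64 with no call when centred on the abundant transcripts. Of 17 kinases and factors upstream of ribosomal protein genes, 0 passed at 24 h and 3 at 4 h. Rheb, the activator of mTOR, was higher at 4 h at 1.94 ± 0.77 but at 0.14 with no call when centred on the abundant transcripts, while Max, the partner of Myc, at -1.60 ± 0.12 and the S6 kinase Rps6kb2 at -1.16 ± 0.12 were lower (SD, n = 2 arrays each).

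**Figure D5:**
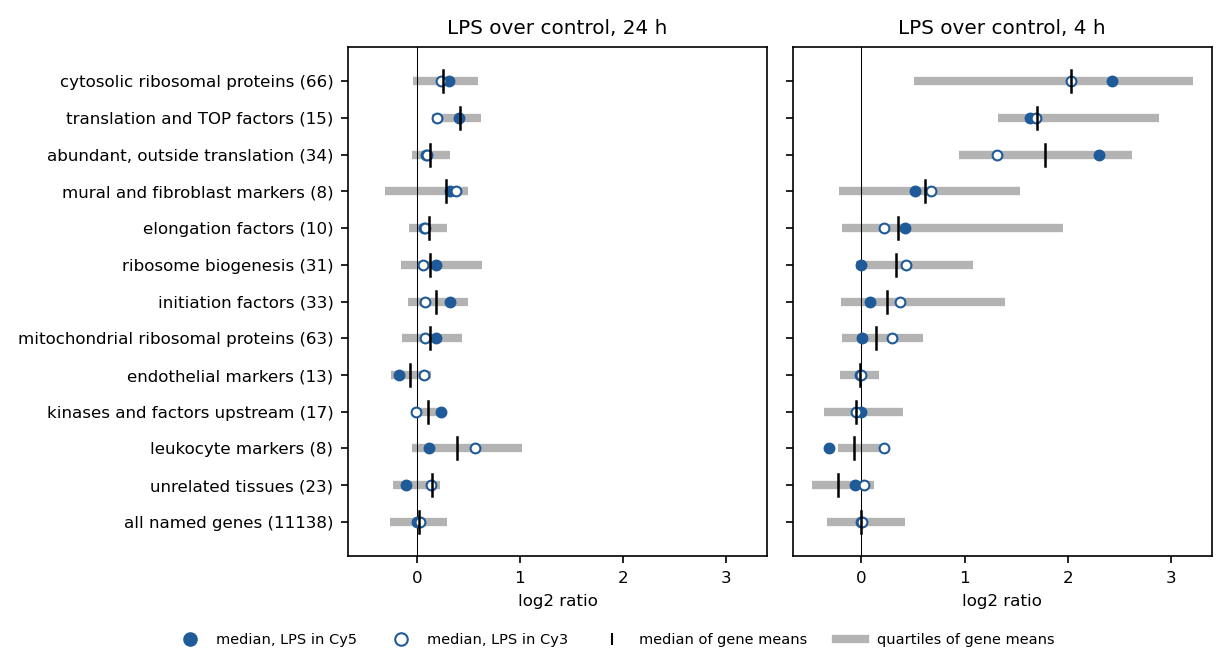
Median log2 ratio of LPS over control (horizontal axes) of each gene list, with the number measured in brackets, at 24 h (left) and 4 h (right). Circles are the medians on each array, ticks the medians of gene means and grey bars their quartiles; at 4 h the ribosomal, translation-factor and abundant-transcript lists have medians of 2.03, 1.71 and 1.78, and the mitochondrial ribosomal list 0.15.

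In addition, 5 ribosomal genes whose symbols fall outside the rule were measured. Rps3a1, a small-subunit protein, had -1.07 ± 0.82 at 24 h and 3.48 ± 0.86 at 4 h, and Rpl7l1 had -0.26 ± 0.71 at 24 h and 1.23 ± 0.54 at 4 h (SD, n = 2 arrays each). Both passed the rule at 4 h, but centred on the abundant transcripts Rpl7l1 had -0.57 at 4 h and did not pass. With that centring Rps3a1 still passed at 4 h, at 1.67. It was then called lower at 24 h, at -1.74 with LPS in Cy5 and -0.59 with LPS in Cy3 (mean -1.17). Rpl36al had -1.10 ± 1.45 at 24 h and 0.44 ± 0.63 at 4 h, and did not pass; with the other centring it was lower at 4 h, at -1.37. The remaining pair, named after their values were seen, did not pass: Fau, which encodes a small-subunit protein fused to a ubiquitin-like one, had 0.35 ± 0.10 at 24 h and -0.92 ± 1.04 at 4 h, and Rpl22l1, a paralogue of Rpl22, had 0.05 ± 0.50 at 24 h and -0.24 ± 2.68 at 4 h. Both were lower at 4 h with the other centring, at -2.72 and -2.05. Of 8 leukocyte markers 1 was higher at 24 h and 0 at 4 h, and of 8 mural and fibroblast markers 1 was higher at 24 h, and 4 were higher and 1 lower at 4 h, with a list median of 0.28 at 24 h and 0.62 at 4 h. Of 23 genes of unrelated tissues, 0 passed at 24 h, and 1 was higher and 1 lower at 4 h. Centred on the abundant transcripts, the 4 h medians were -1.88 for leukocyte markers, -1.19 for mural and fibroblast markers and -2.03 for unrelated tissues. Pdgfra (0.11), Dcn (-0.11) and Acta2 (-0.33), mural and fibroblast markers called higher at 4 h before, then lost that call. The leukocyte marker Coro1a, called higher at 24 h before, lost its call there, at 0.95. The part of other cells in the ribosomal values was not tested.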

How the data were processed

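Amplified RNA from LPS-treated and control SVEC cells was measured on 4 arrays with 2 dyes, Operon V1 long oligonucleotides per the labels. The deposited values are log2 ratios of the dyes; their scale and the median of 0 on each array were read from the values. How the arrays were scanned, background-corrected and normalized is not given in the sources used here.

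Of 32448 spots, 24344 had 1 gene symbol in the platform annotation, 98 had several and 8006 had none; spots of a gene were averaged. All 66 members were found in RefSeq, 65 by Entrez identifier and Rpl5 by symbol. Before any sign was turned, the 2 arrays correlated at r = -0.0416 at 24 h and -0.23 at 4 h over all spots; the labelled dye reversals were turned in sign. Ratios of exactly 1 were kept; with LPS in Cy5 there were 3501 such spots at 24 h and 5307 at 4 h, and with LPS in Cy3 3267 at 24 h and 2041 at 4 h. The number of arrays limits the precision.

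Each array was centred on its median and both arrays of each time were then averaged. The 2-fold and difference rules are in the report, and the shared response was fitted with limma 3.58.1 in R 4.3.3, with Benjamini-Hochberg adjustment over all genes; scripts were tested on simulated data. Members and gene lists were chosen with earlier results of these data known. Array values are given for the 5 highest and 3 lowest of each subunit at 4 h, the 3 highest and 3 lowest at 24 h, stalk genes, Rpl5, Rpl11, Rps6 and Rpsa; other lists name up to 3 genes of the largest means. Members named for their spots or paralogues were picked after their values were seen. Promoters and motifs were searched in RefSeq windows on GRCm38.p6. Alternatives were other scalings and centrings, thresholds, spot rules, limma settings and leaving out each array.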

Additional observations from a re-analysis of the deposited data

Results flagged for a closer look

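In 7 members both 24 h arrays lay on one side of 0 and both 4 h arrays on the other. The share of all named genes that did so is not given, so these 7 are not shown to exceed the background. Of all named genes, 30.3% lay above 0 and 25.6% below 0 on both 24 h arrays. At 4 h, 31.2% lay above 0 and 31.6% below 0 on both arrays. The difference between times was not tested. The difference of the means, 24 h minus 4 h on the log2 scale, was -4.79 for Rps7, -4.12 for Rpl39, -2.13 for Rpl28 and -1.60 for Rpl10a, all below 0 at 24 h and above 0 at 4 h, except that Rpl10a had a 4 h mean of -0.50 when the arrays were centred on abundant transcripts. It was 1.19 for Rpl30, 0.735 for Rpl3 and 0.545 for Rpl7a, all above 0 at 24 h and below 0 at 4 h. Rpl39 and Rps7 had the largest of these differences, and Rpl28 lay at -0.21 and -0.01 at 24 h, so 1 of its arrays was close to 0.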

How the results depend on the processing

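No analysis paired by culture was possible because the labels carry no replicate numbers and each time was taken as 1 RNA pair. LPS and control RNA shared each array, so every ratio is already a contrast within an array. With arrays centred on abundant transcripts outside translation, the 24 h median was 0.16 with 1 member higher, the 4 h median was 0.22 with 21 higher and 17 lower, and 19 members were lower and 17 higher at 24 h than at 4 h; Rpl10a (-0.50), Rpl13 (-0.048), Rpl19 (-0.36), Rpl39l (-0.038), Rpl8 (-0.015), Rps14 (-0.37) and Rps27l (-0.37), called higher before, turned below 0 at 4 h, as did 14 members not called before, 21 in all. That alternative subtracts the list's median from every gene. It left 1.28% of all genes higher at 24 h and 1.1% at 4 h, with 8863 lower at 4 h. Quantile normalization gave 6 members higher at 24 h, against 3.69% of all genes, and a 4 h median of 1.53. With ratios of exactly 1 not measured, the large-minus-small difference was 0.13 at 24 h and -0.10 at 4 h, the member median at 4 h was 2.46 over the 60 members left, and 1 member was higher at 24 h than at 4 h. Without oligonucleotides whose spots differed, the large-minus-small difference was 0.10 at 24 h and 0.0765 at 4 h, the 4 h median was 2.50 over 42 members, and 25 of 40 members were lower and 0 higher at 24 h than at 4 h. A 1.5-fold mean gave 16 higher and 2 lower at 24 h and 5 lower at 4 h, a 3-fold mean gave 0 higher at 24 h, and the mean alone gave 2 lower at 4 h. A 4-fold difference left 0 members higher at 24 h than at 4 h. Shares of all genes at these other thresholds are not given. Causes of these shifts were not tested. Leaving out each array of a time in turn gave 1 to 12 members higher and 2 to 4 lower at 24 h. Of all 11138 genes, 4.51% to 6.92% were then higher and 310 to 818 genes lower. The 24 h large-minus-small difference was 0.097 to 0.13. At 4 h it gave 41 to 44 members higher and 1 to 5 lower. Of all genes, 12.4% to 13.3% were then higher and 996 to 1007 genes lower. The 4 h median was 2.03 to 2.42. The 4 h large-minus-small difference ran from -0.23 (without the array with LPS in Cy5) to 1.44. By the difference rule, 37 to 41 members were lower and 1 to 6 higher at 24 h than at 4 h. With an array left out, fewer arrays had to lie beyond each other, for every gene. Shares of all genes by the difference rule are given for the main setting only, and do not serve as background for the difference counts of the alternatives. The other 91 summary values stayed on the same side, counts within 1.5 times (3 higher at 24 h, against 2, with arrays scaled to one spread; 31 lower at 24 h than at 4 h, against 38, with quantile normalization) and other values within 1 SD between arrays, which is wide for the 4 h subunit difference. The shared fit called 0 members in every limma setting, with 1 to 22 of 66 members at an unadjusted p of 0.05. The 1 member was with arrays centred on abundant transcripts, where 396 of all 11138 genes passed. The 22 were with quantile normalization, where 845 of all genes passed. Filters on faint spots and other background corrections could not be run without intensities.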
